A study of Mus musculus with 2 samples.

Results

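The collagens and the enzymes that build, cross-link and cut the matrix were followed in the livers of mice with and without Pnpla8. Members were taken by gene symbol: the chains of the collagen family, the matrix metalloproteinases (Mmp), their tissue inhibitors (Timp), the lysyl oxidases (Lox, Loxl) and the numbered ADAMTS proteases. The array held 93 such genes on 138 probes, of 28580 named genes on 39429 probes. Of the 93, 44 were collagen chains, 40 were proteases, 4 were inhibitors and 5 were lysyl oxidases.

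RNA came from the livers of C57BL/6N mice that were wild type (Pnpla8+/+) or lacked the gene (Pnpla8-/-). Pnpla8 encodes a phospholipase that releases fatty acids from membrane phospholipids, and the study's title places it in the hepatic breakdown of phosphatidylcholine that supplies choline to the methionine cycle. Each genotype was represented by 1 one-colour array, on which equal amounts of RNA from 5 animals were pooled. The series design text gives the age as 8 weeks and the sample labels give 6 weeks, and nothing in the labels settles which is right. The labels give the genotype alone for either group, with no agent and no Cre driver. As each genotype has 1 array, differences between the pools have no replicate check, and neither a test nor a p-value is given. Differences are described by size, with at least 2-fold as the fixed mark. Shares of members at that mark are set beside those of all measured genes.

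Collagens are secreted proteins wound from 3 chains whose helix needs glycine at each step of a glycine-X-Y repeat. Fibrillar collagens assemble into the cables of connective tissue, type IV collagen forms the mesh of basement membranes, and lysyl oxidases cross-link the finished fibres. Metalloproteinases and ADAMTS proteases process or cut these proteins, and TIMPs block the metalloproteinases. In the liver, stellate cells and portal fibroblasts are known as the main makers of fibrillar collagen, while hepatocytes, endothelial cells and macrophages contribute other matrix proteins and proteases.

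Of the 138 member probes, 28 hold a stop codon in each of the 3 sense frames and so are not wholly coding, while a few lie in the helix itself. That pair, both for genes that appear in the results, is shown because the repeat that makes a collagen a collagen can be read from the probe. The array header names the mm9 build. The Col15a1 probe A_55_P2060386 lies at chr4:47283786-47283845 and the Col25a1 probe A_55_P2107711 at chr3:130270497-130270556, both on the plus strand. Capitals mark the 6 glycine codons of each 60-base probe, which follow each other at a fixed step.
Col15a1: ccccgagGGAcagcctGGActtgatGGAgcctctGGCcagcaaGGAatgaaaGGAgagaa
Col25a1: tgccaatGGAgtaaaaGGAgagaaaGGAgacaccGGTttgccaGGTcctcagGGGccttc
The 250 bases before the start are shown for 3 fibrillar collagens and Timp1, all lower in the knockout pool, because these genes are taken up together below. The sequences are those of RefSeq on GRCm38.p6, at chr6:4505368-4505617 for Col1a2, chr1:45311288-45311537 for Col3a1, chr4:63215162-63215411 for Col27a1 and chrX:20869916-20870165 for Timp1, all on the plus strand. Capitals mark matches on either strand to the CCAAT box (letters CCAAT), the GC box (letters GGGCGG), the AP-1 site (letters TGANTCA) or the TATA box (letters TATAAA).
Col1a2: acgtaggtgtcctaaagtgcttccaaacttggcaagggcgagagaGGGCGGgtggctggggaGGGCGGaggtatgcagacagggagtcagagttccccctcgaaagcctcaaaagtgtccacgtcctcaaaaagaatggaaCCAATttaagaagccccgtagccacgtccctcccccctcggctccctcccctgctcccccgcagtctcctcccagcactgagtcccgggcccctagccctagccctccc
Col3a1: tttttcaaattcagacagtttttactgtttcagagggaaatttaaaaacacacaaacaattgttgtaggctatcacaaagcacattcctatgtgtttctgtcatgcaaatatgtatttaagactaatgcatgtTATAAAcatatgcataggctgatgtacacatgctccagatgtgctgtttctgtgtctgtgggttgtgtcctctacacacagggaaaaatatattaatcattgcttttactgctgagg
Col27a1: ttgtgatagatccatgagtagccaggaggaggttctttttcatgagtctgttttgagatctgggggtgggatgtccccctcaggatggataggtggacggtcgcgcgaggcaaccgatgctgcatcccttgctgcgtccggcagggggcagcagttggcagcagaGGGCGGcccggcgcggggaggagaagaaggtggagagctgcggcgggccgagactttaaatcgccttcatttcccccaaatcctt
Timp1: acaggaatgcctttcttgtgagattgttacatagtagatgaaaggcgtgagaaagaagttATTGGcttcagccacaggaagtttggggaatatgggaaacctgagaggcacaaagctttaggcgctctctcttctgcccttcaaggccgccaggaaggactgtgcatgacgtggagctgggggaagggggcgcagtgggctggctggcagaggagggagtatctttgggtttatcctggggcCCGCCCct
The 4 promoters hold different matches. Col1a2 holds 1 CCAAT box and 2 GC boxes, Timp1 holds 1 of each, Col27a1 holds 1 GC box, and Col3a1 holds a TATA box and neither of the others. None of the 4 windows holds an AP-1 match. RefSeq promoters were found for 66 of the 93 members, with 72 windows of 300 bases in all. The CCAAT box was found in 31.9% of the members' windows and in 37.4% of 32851 mouse windows, the GC box in 58.3% and 35.7%, the AP-1 site in 9.72% and 7.81%, and the TATA box in 19.4% and 13.6%. A match is a description of these letters and not evidence of a bound factor.

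Signal was well above background for 30141 of 43020 spots (70.1%) on the wild-type array and for 28212 (65.6%) on the knockout array, and none was saturated. The level used for scaling, the 75th percentile, was 1207 and 1018. Pnpla8 itself read 144 ± 14.9 in the wild-type pool and 4.45 ± 4.43 in the knockout pool, a value under the background limit, so it was at least 6.81-fold lower, as the labels require. The exons that the allele lacks are not stated in the labels. Errors written with ± are those of the scanning software, Agilent Feature Extraction, for the spot, and they cover the scan of the array and not the animals. For a log2 ratio the median error was 0.21 over the 67 measured member probes. Repeated spots of a probe differed by a median SD of 0.05 and different probes of a gene by 0.10, over all genes with several.

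Not all members were detected. Of the 93, 55 were well above background on both arrays, as were 65.7% of all genes. A further 9 were detected in the wild type alone (5.26% of all genes) and 1, Adamts12, in the knockout alone (0.871% of all genes). The remaining 28 were not well above background on either array, as were 8052 of all 28580 genes.

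The matrix genes as a whole were slightly lower in the Pnpla8-/- pool, with a median log2 ratio of -0.12 over the 55 members measured on both arrays, against 0.04 over all 18773 measured genes. Of the 55, 35 were below 0 and 20 above, whereas 43.6% of all measured genes were below 0. Few differences were large. Col4a3 was the 1 member at least 2-fold higher, where 1.27% of all measured genes were. Col27a1, Mmp2 and Mmp27 were the 3 at least 2-fold lower, where 1.94% of all measured genes were. These shares of members are 1.82% and 5.45%, and each rests on so few genes that it differs from the background by a gene or a few. Either way, 3.21% of all measured genes were at least 2-fold apart.

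The classes of genes had different medians. Fibrillar collagens had a median of -0.51 over 7 measured genes and lysyl oxidases of -0.61 over 4. Other collagens stood at -0.11 over 12, ADAMTS proteases at -0.11 over 11, metalloproteinases at -0.05 over 10 and TIMPs at -0.03 over 4. Basement membrane collagens stood at 0.28 over 7, a median that was above 0 under each scaling but -0.017 with no filter on dim probes and -0.12 with bright probes alone. The 4 classes nearest 0 lay on both sides of it depending on the scaling, while fibrillar collagens and lysyl oxidases were below 0 in each setting that gave a value. The median of the fibrillar class minus that of the basement membrane class was -0.79 on the log2 scale, and this difference lay between -0.42 and -0.79 under every scaling, background correction and probe choice that was tried.

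**Figure D1:**
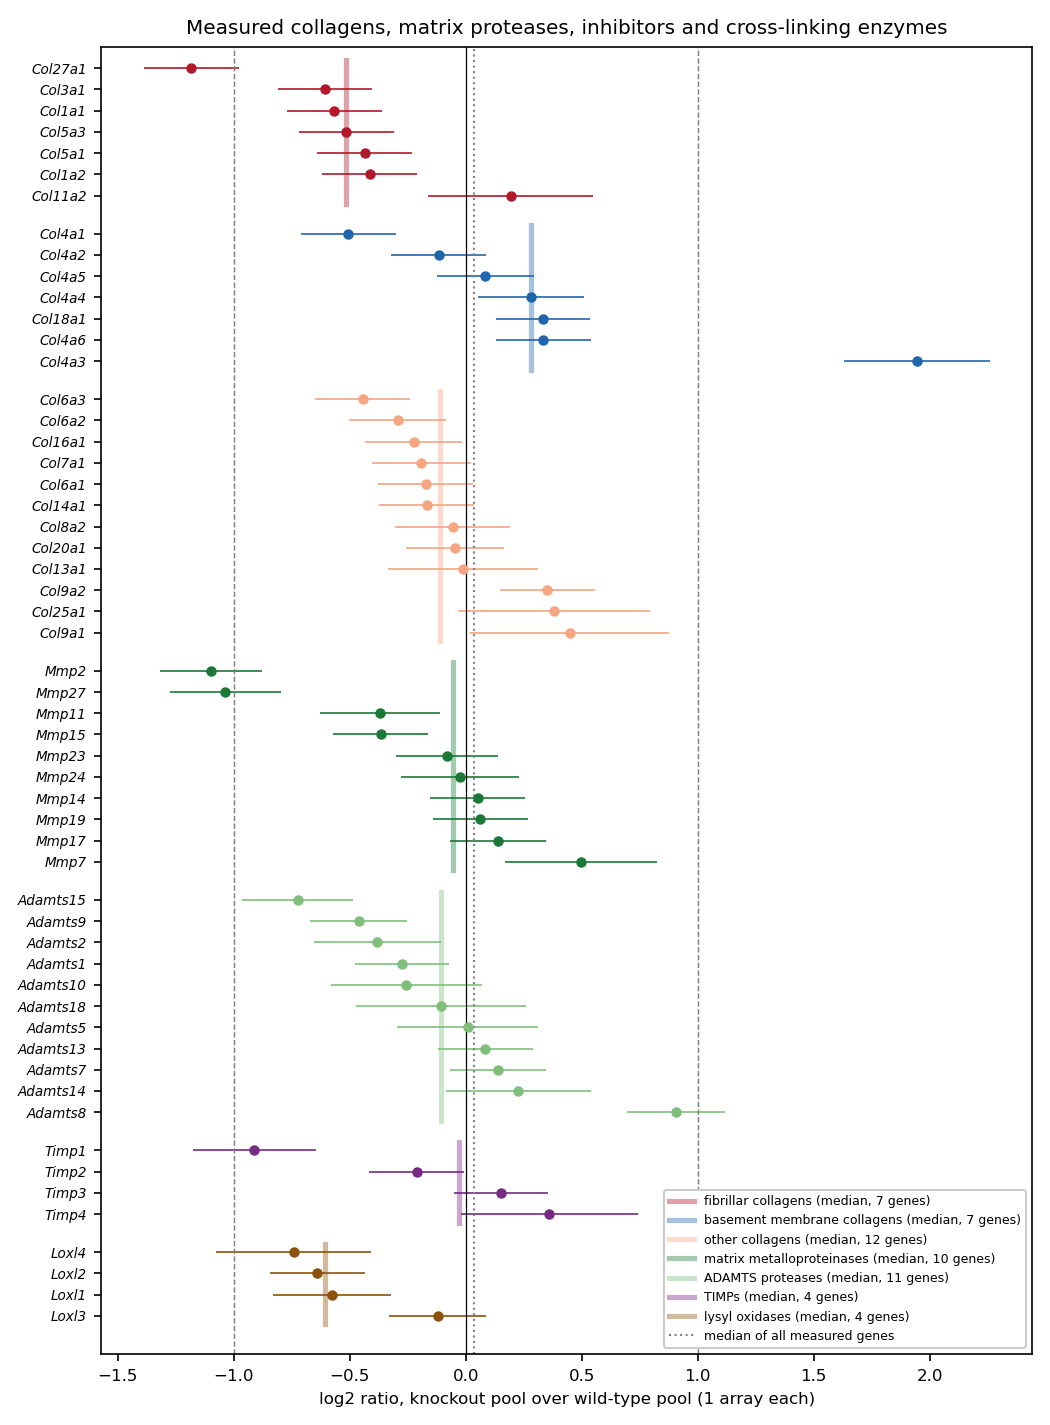
Each point is the log2 ratio of the knockout pool over the wild-type pool for 1 measured member, coloured by role, with bars for the Feature Extraction error of the ratio, thick vertical lines for class medians, dashed lines at 2-fold and a dotted line at the median of all measured genes. Left of 0 lie 6 of the 7 fibrillar collagens and all 4 lysyl oxidases, while 5 of the 7 basement membrane collagens lie right of it, and Col4a3 stands apart at 1.95.

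A count by error rather than by fold, chosen after the values were seen, gave more members on the lower side than on the higher. Of the 55 measured members, 16 (29.1%) were lower by more than 2 times their own Feature Extraction error and 2 (3.64%) were higher, where 8.86% and 7.22% of all measured genes were. The 16 included 6 of the 7 fibrillar collagens and 3 of the 4 lysyl oxidases. They also included Mmp2 and Mmp27 of 10 metalloproteinases, Adamts15 and Adamts9 of 11 ADAMTS proteases, Timp1 of 4 TIMPs, Col4a1 of 7 basement membrane chains and Col6a3 of 12 other collagens. The 2 higher were Col4a3 and Adamts8.

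The fibrillar collagens were lower in the knockout pool by a like amount, apart from 1 larger and 1 opposite value. The chains of type I and type III collagen, the bulk collagens of liver connective tissue, were far above background on both arrays. Col1a1 (probe at chr11:94813115-94813174) read 1763 ± 176 in the wild-type pool and 1004 ± 101 in the knockout pool, a log2 ratio of -0.57 ± 0.20, or 1.48-fold lower. Col1a2, the partner chain, read 6390 ± 639 and 4044 ± 404, a ratio of -0.41 ± 0.20. Col3a1 read 4980 ± 498 and 2759 ± 276, a ratio of -0.61 ± 0.20. The type I chains and the type III chain were therefore lower by values that lie within 1 Feature Extraction error of each other.

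Type V collagen, which sits inside type I fibrils and sets their width, followed the same direction. Col5a1 read 559 ± 56.0 in the wild-type pool and 348 ± 35.2 in the knockout pool, a log2 ratio of -0.44 ± 0.21. Col5a3 read 1200 ± 120 and 709 ± 71.0, a ratio of -0.51 ± 0.20. Col5a2, the gene next to Col3a1 on chromosome 1, read 33.4 ± 4.70 in the wild-type pool and 17.3 ± 4.48, under the background limit, in the knockout pool, and was at least 1.57-fold lower, a log2 bound of -0.65 that was -0.07 with the normexp correction. For such a bound, the dim side was taken at its own signal or at the lowest signal that counted as well above background on its array, whichever was greater.

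Col27a1, a fibrillar collagen best known from cartilage, had the lowest ratio of any member. Its 1 probe, at chr4:62995485-62995544, read 641 ± 64.2 in the wild-type pool and 238 ± 24.2 in the knockout pool, a log2 ratio of -1.18 ± 0.21, or 2.27-fold lower. That value lies at percentile 0.985 of all measured genes counted from the lowest. Under a background correction with an added offset (normexp) it was -0.98, just short of 2-fold. The remaining measured fibrillar gene, Col11a2, was dim and stood at 0.19 ± 0.36, a value its error does not separate from 0. Col2a1 and Col11a1 were not well above background on either array, and Col24a1 was so in the wild-type pool alone, with no usable bound.

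**Figure D2:**
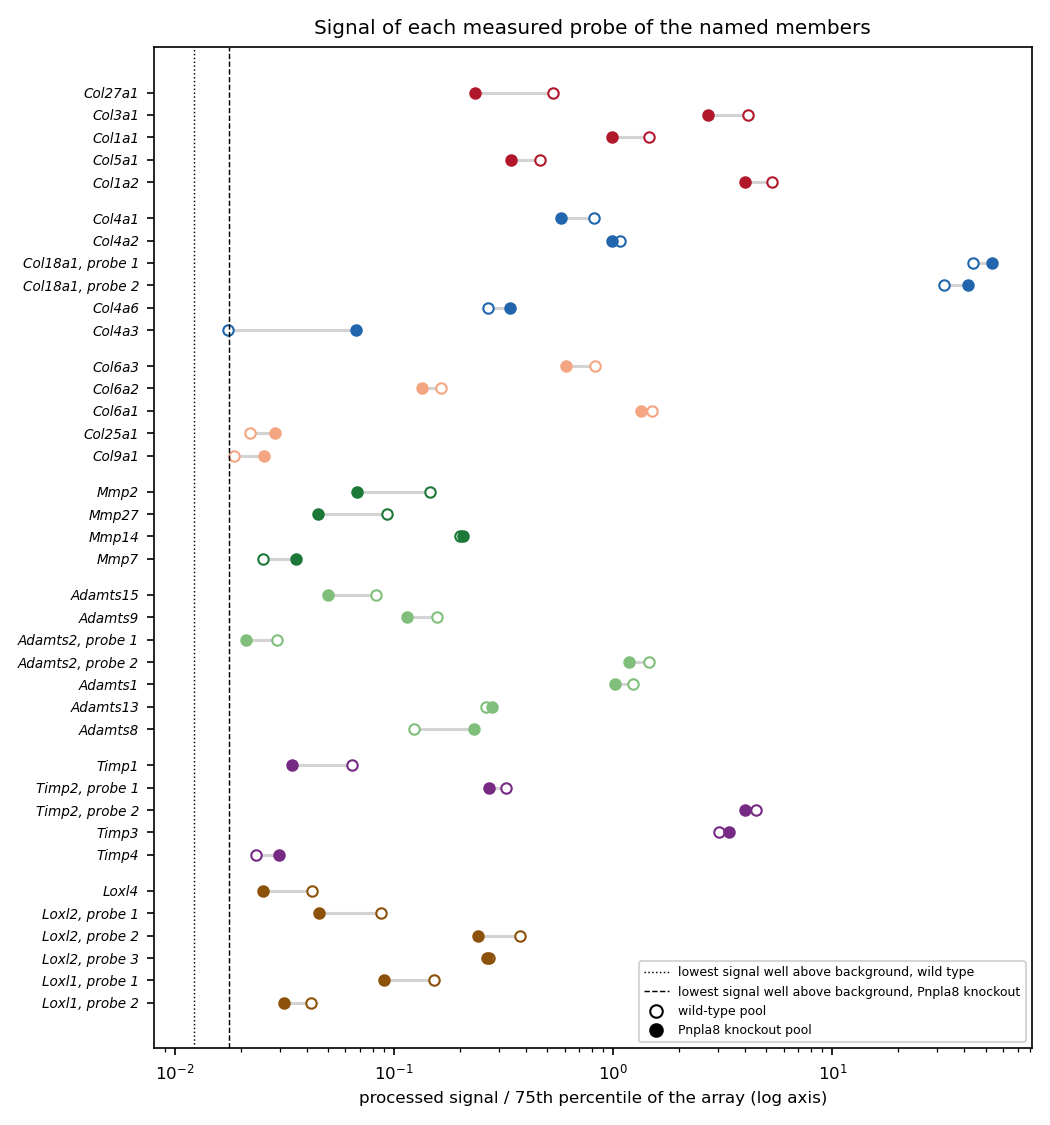
Each row is 1 measured probe of a named member, with its processed signal divided by the 75th percentile of its array on a log axis, as an open circle for the wild-type pool and a filled circle for the knockout pool; vertical lines mark the lowest signal well above background on each array. Rows are to be read within a gene and not against each other, and the Col4a3 wild-type value lies at the lower edge of what was measured.

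The lysyl oxidases, which cross-link collagen and elastin, were all on the lower side where they could be measured. Loxl2 was measured by 3 probes, which read 453 and 245 (log2 ratio -0.64), 106 and 46.1 (-0.95), and 328 and 270 (-0.04) in the wild-type and knockout pools. The first 2 of these probes therefore point down, by up to nearly 2-fold. The third, at -0.04 ± 0.21, is not separated from 0 by its error. Loxl1 was measured by 2 probes, at 183 and 92.1 (-0.74) and at 50.4 and 32.1 (-0.41). Loxl4 read 50.8 ± 6.20 and 25.6 ± 5.06, a ratio of -0.74 ± 0.34, and its other probe passed the background limit in the wild type alone, on the same side (35.1 and 12.1). Loxl3 stood at -0.12 ± 0.21. Lox itself was not well above background on either array. Loxl1 and Loxl4 are dim, and with the normexp correction the median of the class moved from -0.61 to -0.14.

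The basement membrane collagens did not all share the fibrillar direction, and their ratios spread from -0.51 to 1.95. The values above 0 were those of Col4a3, Col4a4, Col4a5, Col4a6 and Col18a1. Col4a1 and Col4a2 encode the chains of the common type IV network and are transcribed away from each other, with annotated starts 21 bases apart on chromosome 8 of GRCm38.p6. Col4a1, measured by 10 spots, read 989 ± 99.1 in the wild-type pool and 587 ± 58.9 in the knockout pool, a log2 ratio of -0.51 with an SD of 0.03 between spots. Col4a2 read 1293 ± 129 and 1006 ± 101, a ratio of -0.12 ± 0.20. Both chains read lower in the knockout pool, and the log2 ratio of Col4a1 minus that of Col4a2 was -0.39 with a combined Feature Extraction error of 0.29.

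The chains of the rarer type IV networks, known above all from the kidney filter, stood near 0 or above it. Col4a3 read 21.0 ± 3.87 in the wild-type pool and 68.2 ± 7.88 in the knockout pool, a log2 ratio of 1.95 ± 0.31, or 3.85-fold higher, at percentile 99.9 of all measured genes. Its wild-type signal is close to the lowest that counted as well above background there, 14.7. With the normexp correction the ratio was 0.90. Col4a4, the neighbour that shares a start region with Col4a3, was measured by 2 probes with ratios of 0.53 (67.7 and 82.7) and 0.03 (83.5 and 71.7). Col4a5 stood at 0.08 ± 0.21. Col4a6 stood at 0.33 ± 0.21 (324 and 345), but its other probe pointed the opposite way, at 37.9 in the wild-type pool and 9.79, under the background limit, in the knockout pool. A 3.85-fold difference was thus read from Col4a3 alone and from no other chain of its network.

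Col18a1, whose product releases endostatin and which hepatocytes are known to make, was far above background on both of its probes. They read 38968 and 42522 (log2 ratio 0.37) and 52671 and 54486 (0.29) in the wild-type and knockout pools, and the ratio of the gene was 0.33. It was 0.09 with no scaling and at most 0.39 under the other scalings. Col15a1, its close relative, whose helix probe is printed above, read 28.3 ± 4.13 in the wild-type pool and 14.4 ± 3.94, under the background limit, in the knockout pool, and was at least 1.33-fold lower, a bound that no longer gave a direction with the normexp correction.

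The other collagens were mostly a little lower. Type VI collagen forms beaded filaments around cells, and its 3 measured chains were all on the lower side. Col6a3 read 1001 ± 100 and 621 ± 62.3, a log2 ratio of -0.44 ± 0.20, Col6a2 stood at -0.29 ± 0.21 and Col6a1 at -0.17 ± 0.20. The chains Col6a4, Col6a5 and Col6a6, which lie side by side on chromosome 9, were not well above background on either array. Col16a1 stood at -0.23, Col7a1, the anchoring fibril collagen, at -0.19, and Col14a1 at -0.17. Col12a1, which like Col14a1 lies on the surface of fibrils, passed the background limit in the wild type alone (37.2 and 15.2) and was at least 1.75-fold lower, a log2 bound of -0.81 that was -0.11 with the normexp correction and -1.06 with no scaling.

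On the higher side among the other collagens, Col9a2 read 311 ± 31.3 and 334 ± 33.7, a log2 ratio of 0.35 ± 0.21. Col9a1 (0.45 ± 0.43) and Col25a1 (0.38 ± 0.41) were near the background on both arrays. The Col25a1 value rests on the helix probe printed above (26.6 and 29.2), while 2 further probes of the gene passed the background limit in the wild type alone (18.7 and 9.53, and 18.6 and 10.2). None of these 3 genes was higher by more than 2 times its Feature Extraction error, and Col9a2 stood at 0.11 with no scaling.

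Among the metalloproteinases, the gelatinase Mmp2 was lower while the membrane-bound enzyme that activates it stood near 0. Mmp2, which cuts denatured collagen and basement membrane and which stellate cells and fibroblasts are known to make, read 176 ± 17.8 in the wild-type pool and 69.3 ± 7.86 in the knockout pool, a log2 ratio of -1.10 ± 0.22, or 2.14-fold lower. Mmp14, which activates the Mmp2 precursor together with Timp2, read 241 ± 24.3 and 211 ± 21.4, a ratio of 0.05 ± 0.21. Mmp27 read 112 ± 11.6 and 45.8 ± 5.91, a ratio of -1.04 ± 0.24, on 1 probe, while its other probe was not well above background on either array. Mmp7, matrilysin, read 30.4 ± 4.80 and 36.2 ± 5.88, a ratio of 0.50 ± 0.33. Mmp11 and Mmp15 both stood at -0.37, and Mmp17, Mmp19, Mmp23 and Mmp24 lay between -0.08 and 0.14. With the normexp correction Mmp2 stood at -0.60 and Mmp27 at -0.46, and Mmp27 was also short of 2-fold with median scaling (-0.98), quantile scaling (-0.98) and no filter on dim probes (-0.51).

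Several collagenases and inflammatory metalloproteinases were not detected. Mmp8 (the neutrophil collagenase), Mmp9 (the other gelatinase), Mmp12 (the macrophage elastase) and Mmp13 (the main rodent collagenase) were not well above background on either array, nor was Mmp3. Mmp10 passed the background limit in the wild type alone, with no usable bound. Of the 8 members in the metalloproteinase cluster on chromosome 9, Mmp7 and Mmp27 were the 2 that were measured, where 65.7% of all genes were.

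Promoters of that cluster are shown because AP-1 sites are a known feature of several of them. They include those of its 2 measured genes, Mmp27 (-1.04 ± 0.24) and Mmp7 (0.50 ± 0.33). The part of these motifs in the ratios was not tested. The 100 bases before the start are those of RefSeq on GRCm38.p6, all on the plus strand, at chr9:7691990-7692089 for Mmp7, chr9:7571296-7571395 for Mmp27, chr9:7502242-7502341 for Mmp10 and chr9:7272414-7272513 for Mmp13. Capitals mark the AP-1 and TATA letters given above, on either strand.
Mmp7: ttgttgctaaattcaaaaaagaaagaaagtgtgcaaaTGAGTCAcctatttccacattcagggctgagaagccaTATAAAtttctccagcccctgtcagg
Mmp27: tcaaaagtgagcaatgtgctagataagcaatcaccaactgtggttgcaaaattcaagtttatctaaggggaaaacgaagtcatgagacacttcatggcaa
Mmp10: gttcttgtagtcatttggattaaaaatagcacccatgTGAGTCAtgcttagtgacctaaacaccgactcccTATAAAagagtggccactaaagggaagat
Mmp13: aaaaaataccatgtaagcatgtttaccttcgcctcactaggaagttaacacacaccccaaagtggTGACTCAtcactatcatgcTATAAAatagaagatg
Mmp7, Mmp10 and Mmp13 each hold both motifs, with the AP-1 match beginning 63, 63 and 35 bases before the start. Mmp27 holds neither in these 100 bases. Mmp7 has a further annotated start, and the 100 bases before that one (chr9:7692241-7692340) hold neither motif. Over the 300-base windows, the AP-1 letters were found for 6 of the 8 genes of the cluster (6 of 10 windows) and in 1 of the other 62 member windows. Of the 6 cluster genes with a match, all but Mmp7 and, in the wild-type pool, Mmp10 were not well above background. The 1 match outside the cluster was that of Col6a1, which was measured on both arrays (1817 and 1359).

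Of the inhibitors, Timp1 stood apart from the rest. Timp1, which macrophages and stellate cells are known to induce in injury, read 77.8 ± 8.41 in the wild-type pool and 34.9 ± 5.23 in the knockout pool, a log2 ratio of -0.91 ± 0.27, or 1.88-fold lower. Timp2 was measured by 2 probes, at 5379 and 4060 (-0.16) and at 392 and 276 (-0.26). Timp3, the inhibitor held in the matrix, read 3673 ± 367 and 3443 ± 344, a ratio of 0.15 ± 0.20, and Timp4 was dim at 0.36 ± 0.38. The values of Timp2 and Timp3 thus lay on either side of 0 and near it. Timp1 passed 2-fold with no scaling (-1.16) and with scaling to spike-ins (-1.07), and stood at -0.23 with the normexp correction.

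The ADAMTS proteases lay on both sides of 0, also among genes with like substrates. Adamts15 and Adamts8, both cutters of aggregating proteoglycans and next to each other on chromosome 9, lay on opposite sides, with a difference of -1.63 between their log2 ratios (combined error 0.32). Adamts15 read 99.9 ± 10.5 in the wild-type pool and 51.0 ± 6.55 in the knockout pool, a log2 ratio of -0.72 ± 0.24. Adamts8 read 149 ± 15.5 and 235 ± 24.1, a ratio of 0.91 ± 0.21, or 1.87-fold higher, while its other probe was not well above background on either array. With the normexp correction Adamts15 stood at -0.26 and Adamts8 at 0.69. The lowest value of Adamts8 over all settings was 0.21. Adamts1 and Adamts9, of the same substrate group, stood at -0.28 ± 0.20 (1482 and 1033) and -0.46 ± 0.21 (190 and 116), and Adamts5 at 0.01 ± 0.30.

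The procollagen N-proteinases, which trim fibrillar precursors, gave no common value. Adamts2 stood at -0.38, with probes at 1756 and 1203 (-0.30) and at 35.2 and 21.5 (-0.46). Adamts14 had probes on both sides of 0, at 472 and 332 (-0.26) and at 17.0 and 23.6 (0.72). Adamts13, which cuts von Willebrand factor and which stellate cells are known to make, read 318 ± 32.0 and 285 ± 28.8, a ratio of 0.08 ± 0.21. Adamts12 was under the background limit in the wild type (12.3 ± 3.73) and over it in the knockout (40.3 ± 5.86), so it was at least 3.25-fold higher, a log2 bound of 1.70 that was 0.70, short of 2-fold, with the normexp correction. Its other probe was not well above background on either array. Of all genes detected in the knockout pool alone, 67.9% had a bound of at least 2-fold higher. Of those detected in the wild-type pool alone, 9.51% had a bound of at least 2-fold lower, and none of the 9 members did.

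**Figure D3:**
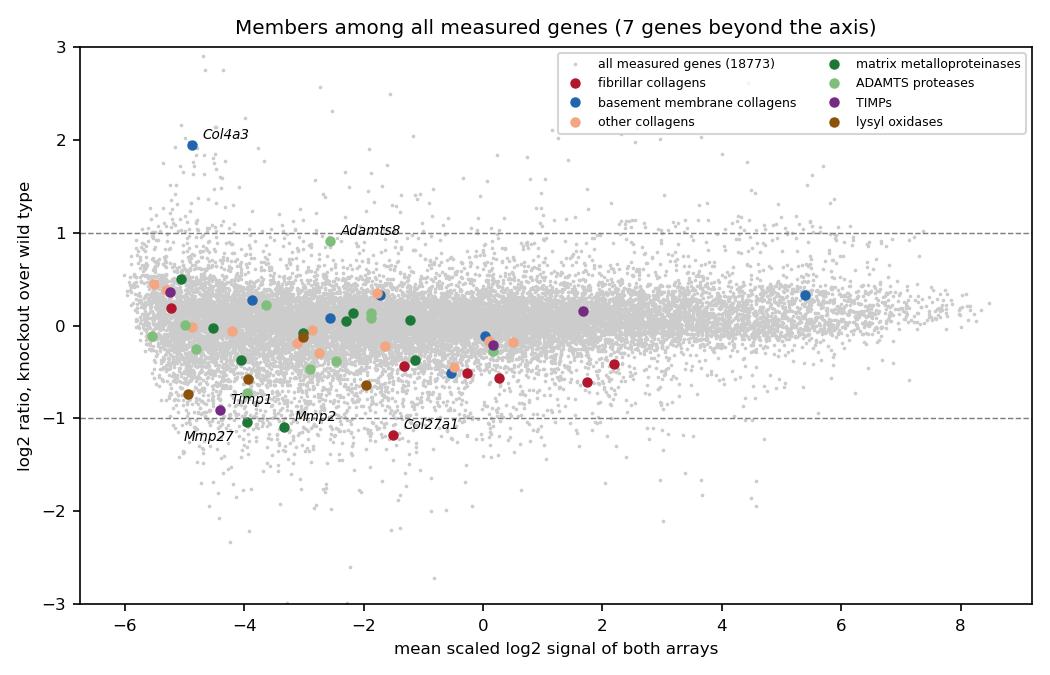
The log2 ratio of each measured gene is plotted against its mean scaled log2 signal on both arrays, with all measured genes in grey, members in the colours of their class and dashed lines at 2-fold; 7 genes lie beyond the axis of 3. Col4a3 lies among the dimmest genes, while Col1a1, Col1a2, Col3a1 and Col5a3 lie at higher signal and below 0.

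The members' median lay nearest 0 among dim genes. In 4 equal bins of mean signal from the dimmest, the members' medians were -0.02 (20 genes), -0.10 (20), -0.28 (11) and -0.13 (4), where those of all measured genes were 0.03, 0.00, 0.03 and 0.08. With probes above the median signal alone, 16 members remained, 14 of them below 0, with a median of -0.30 against 0.06 for all genes. The 2 above 0 were Col18a1 and Timp3. The share of all genes below 0 was not counted with these probes alone. The scaled signal of the negative control spots was 0.53 higher (log2) on the knockout array, and its part in the values of dim genes such as Col4a3, Adamts12 and Col9a1 was not tested.

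The lists of matrix genes outside the 93 leaned the same way as the members. The enzymes and chaperones of collagen synthesis had a median of -0.20 over 21 measured genes, 14 of them below 0. Pcolce2, an enhancer of procollagen trimming, read 488 in the wild-type pool and 182 in the knockout pool, a log2 ratio of -1.17, and was the 1 gene of that list at least 2-fold apart. Serpinh1, the collagen chaperone also called Hsp47, read 1257 and 590, a ratio of -0.85. Other matrix genes had a median of -0.14 over 44, with 31 below 0 and none at least 2-fold apart. Their largest absolute values were those of Has3 (0.75) and Fbln1 (-0.64). The basement membrane genes of that list were mostly lower, among them Hspg2 (-0.48), Nid2 (-0.46), Nid1 (-0.31), Agrn (-0.27) and Lamc1 (-0.25). Lama3 went the other way, at 0.20. Other matrix proteases and inhibitors had a median of -0.14 over 22, with 14 of them below 0.

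Markers of the cells that make matrix were a little lower as well, and those of immune cells were lower by more. In bulk liver RNA, fewer cells of a type and less RNA per cell cannot be told apart. Hepatic stellate cell markers had a median of -0.23 with 9 of 12 below 0. Acta2, the actin of activated stellate and smooth muscle cells, stood at -1.01, while Lrat stood at -0.32 and Dcn at 0.03. The summed scaled signal of the list was 62.9 in the wild-type pool and 62.5 in the knockout pool, and none of its 12 genes was below background. That sum is mostly Dcn, the brightest gene of the list (signal 51474 and 44472), and tells little of the dimmer markers. Portal fibroblast markers had a median of -0.24 with 3 of 5 below 0 (summed signal 2.35 and 1.94, with Gli1 not above background), from Thy1 at -0.85 to Eln at 0.20. Kupffer cell and macrophage markers had a median of -0.88 with 10 of 10 below 0 (summed signal 81.5 and 38.0). Neutrophil markers stood at -1.15 with 3 of 4 below 0 (1.43 and 0.569, with Cxcr2 and Ngp not above background), and Camp at 0.19. T, B and NK cell markers stood at -0.70 with 7 of 8 below 0 (2.73 and 2.23). The brightest of these, Cd3e (-0.06) and Cd4 (0.04), stood near 0 and make up most of that sum. Cell cycle genes stood at -1.33 with 7 of 7 below 0 (1.94 and 0.747). Hepatocyte markers stood at 0.28 over 6 (873 and 1084), sinusoidal endothelial markers at -0.19 over 10 (59.8 and 53.8) and cholangiocyte markers at -0.11 over 6 (0.967 and 0.911). The part of these cell types in the values of the collagens, Mmp2 and Timp1 was not tested.

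The sign of a member near 0 followed the scaling. Over 8 ways of correcting and scaling the arrays, 28 of the 55 measured members stayed below 0 and 10 stayed above 0, and the sign of the other 17 depended on the choice. The same was not counted over all genes, so these counts are not read as a trait of the members. Of the 8, 5 (the 75th percentile, the deposited table, the median, spike-ins and none) differ by a constant added to all genes alike, so these counts mostly tell how far from 0 a ratio lay. The 28 included the 6 fibrillar collagens, Col4a1, Col4a2, the 3 measured type VI chains, the 4 lysyl oxidases, Mmp2, Mmp27, Timp1, Timp2 and Adamts15. The 10 included Col4a3, Col4a4, Col4a6, Col18a1, Adamts8 and Mmp7. With no scaling the median of all genes was -0.21 and with spike-in scaling -0.13. These scalings add a constant to every gene, so the difference between members and all genes, -0.16, cannot change with them; it was -0.11 with normexp, -0.13 with quantile scaling and -0.18 with loess.

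**Figure D4:**
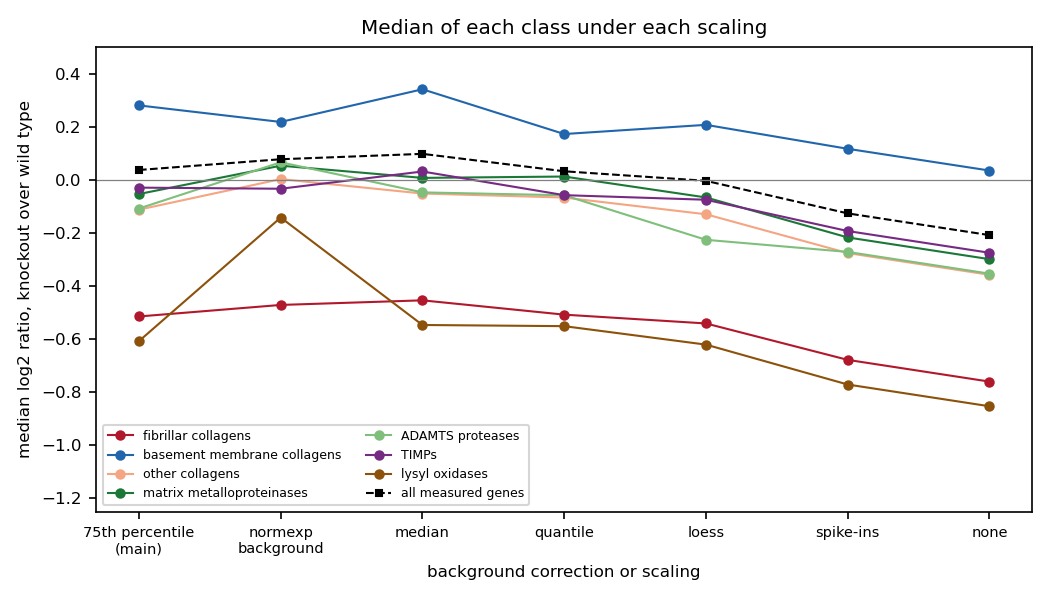
The median log2 ratio of each class is plotted under 7 background corrections or scalings named on the horizontal axis, with all measured genes as black squares joined by a dashed line. Fibrillar collagens and lysyl oxidases lie below the line of all genes in each, basement membrane collagens lie above it in each, and with the normexp correction the lysyl oxidase median rises to -0.14 while that of the fibrillar collagens stays at -0.47.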

How the data were processed

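Liver RNA pooled from 5 mice per genotype was labelled with Cy3 and hybridised to 1 Agilent array per group, grouped by the genotype in the labels. The submitters' processing notes name Agilent Feature Extraction 11.5.1.1, with which the authors extracted spot intensity. The deposited scanner files hold linear intensity per spot, background-subtracted, with its error, and the deposited value table holds the same intensity divided by 1207 (wild type) and 1019 (knockout), which equal the 75th percentiles in the file headers. Columns of samples left unused numbered 0.

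Processed signals were divided by the 75th percentile of their array's non-control spots and taken to log2. Outlier-marked spots (119 and 170) were dropped and spots of a probe averaged. Probes well above background on both arrays counted as measured, and several such probes of a gene were summarised by their median ratio. The lowest signals well above background, 14.7 (wild type) and 17.9 (knockout), served for bounds. Of 39429 probes, 28330 took their gene from the accession and 2378 from the symbol in RefSeq (GRCm38.p6), and 8721 kept that of the file. Probes named only by their own ID were left out. Probe positions are those of the files (mm9).

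The members and lists were chosen with earlier results of these data known. Members named with full values were Pnpla8, those at least 2-fold apart or with such a bound, the 3 largest absolute ratios of each class, and a list of known liver matrix genes; others are named with fewer values, and those outside this rule were chosen after their values were seen. With 1 array per group no test was made, so the number of arrays limits the precision. The settings varied were the scaling (spike-ins, none, median, quantile, loess with span 0.3), the background (normexp, offset 50), the source (deposited table), probe filters and summaries, and thresholds of 1.5-fold and 3-fold. Python 3.11.15, pandas 2.3.3, numpy 2.4.6, statsmodels 0.14.6, and limma 3.58.1 in R 4.3.3 were used, and the steps were tested on simulated data.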

Additional observations from a re-analysis of the deposited data

How the results depend on the processing

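No paired analysis was possible because each genotype has 1 array, so no replicate could be left out either. The limits are those of a single pair of pooled arrays: no value here measures the spread between animals, 44 of the 55 measured members rest on 1 probe, and dim genes are read from few units of signal above background. Of 15 alternatives, the deposited value table, keeping outlier-marked spots, the mean over probes and taking all probes named to a gene moved no count or class median beyond the marks used. With median scaling, no scaling and spike-ins, each ratio moves by a constant added to all genes alike. With bright probes alone, Col4a3, Col27a1, Mmp2 and Mmp27 drop out and have no ratio. The counts at 1.5-fold and 3-fold use the same ratios as the main setting. The cause of the other changes below was not tested.

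The 1 member at least 2-fold higher became 0 with normexp, 0 with bright probes alone, 6 with no filter on dim probes and 2 at 1.5-fold. Of all genes with a ratio in these settings, 0.692%, 1.25%, 3.08% and 4.31% were higher by the same marks. The 3 members at least 2-fold lower became 0 with normexp, 0 with bright probes alone, 0 at 3-fold and 8 at 1.5-fold. Mmp27 was lost under median and quantile scaling (2 members left in each), and Timp1 was added with no scaling and with spike-ins (4 members in each). Of all measured genes, 1.61%, 1.78%, 3.96% and 3.20% were at least 2-fold lower in these settings. With no filter on dim probes Mmp27 was lost and Loxl4 (-1.02) was added, where 4.02% of all genes were at least 2-fold lower. With normexp, class medians were 0.066 for ADAMTS proteases and 0.0025 for other collagens (both reversed), 0.053 for metalloproteinases and -0.14 for lysyl oxidases. With no scaling they were -0.37 over all members, -0.35 ADAMTS, -0.27 TIMPs, 0.035 basement membrane, -0.76 fibrillar, -0.85 lysyl oxidases, -0.30 metalloproteinases and -0.36 other collagens. With spike-ins the same were -0.29, -0.27, -0.19, 0.12, -0.68, -0.77, -0.22 and -0.28. Loess gave -0.23 for ADAMTS proteases and quantile scaling 0.17 for basement membrane collagens. With no filter on dim probes, ADAMTS proteases stood at 0.14 and basement membrane collagens at -0.017 (both reversed) and metalloproteinases at 0.051. With bright probes alone (16 members, no lysyl oxidase), the medians were -0.30 over all members, -0.29 ADAMTS, -0.12 basement membrane (reversed), -0.37 metalloproteinases and -0.23 other collagens. With the brightest probe of each gene they were -0.26 for ADAMTS proteases and 0.084 for basement membrane collagens.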
